A study of Ctenopharyngodon idella with 6 samples.

Results

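The miR-34 and miR-210 families were followed in plasma exosomes of grass carp (Ctenopharyngodon idella), the small vesicles that cells release into blood with RNA and protein inside. Members were all entries of the known miRNA table whose name carries the family number 34 or 210, whatever the species, letter or arm. There were 39 such entries among 2925, of which 17 were named miR-34 and 22 miR-210. Many names stand for nearly the same letters in different species, and 30 of the 39 held exactly the values of another member name in all 6 libraries. The 39 names thus held 18 distinct sets of values, 9 for miR-34 and 9 for miR-210.

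The study asked how large and small fish of the same high-density pond culture differ. Large fish (libraries L1, L2 and L3) and small fish (S1, S2 and S3) were 10 months old and had been cultured for 9 months. Each large fish library came from plasma pooled over 2 fish (6 fish in all), and each small fish library from plasma pooled over 5 fish (15 fish in all). Pool size therefore went with fish size, and the effects of the 2 cannot be told apart. No treatment or genotype is given for either group, and the sex of the fish was not determined. The p-values measure the spread between pools rather than between single fish.

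A miRNA is a short RNA that pairs with messenger RNAs mainly through its seed, the bases near its 5′ end, and lowers their output. In mammals the miR-34 genes are transcribed under p53, the stress and DNA damage regulator. There miR-34a is made in many tissues, while miR-34b and miR-34c come from a shared transcript that is abundant in testis and in multiciliated epithelium. miR-210 is induced through hypoxia-inducible factor when oxygen falls and represses mitochondrial iron-sulfur cluster assembly. In mammals the name miR-210 usually means the 3p arm of the hairpin, and the 5p arm is the opposite strand.

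The sequences below were taken from the deposited table, which writes T for U, and bases 2 to 8 are in capitals as the seed. They are shown because the names alone do not tell which forms can be counted apart.
dre-miR-210-5p: aGCCACTGactaacgcacattg
ssa-miR-210-5p: aGCCACTGactaacgtacattg
dre-miR-210-3p: cTGTGCGTgtgacagcggctaa
pma-miR-210: gTGTGCGTgtgacagcggctgt
efu-miR-34a: tGGCAGTGtcttagctggttgttg
aca-miR-34b-5p: tGGCAGTGtcttagctggttg
dre-miR-34c-5p: aGGCAGTGcagttagttgattac
mmu-miR-34c-5p: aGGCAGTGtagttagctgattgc
dre-miR-34b: tAGGCAGTgttgttagctgattg
dre-miR-34c-3p: aATCACTAacctcactaccagg
gmo-miR-34-3p: aATCAGCAagtatactgccg
The prefix dre marks zebrafish, the nearest relative of grass carp among these names, and was used as the representative of a form where it existed.

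Seeds grouped the names more simply than species did. The seed GGCAGTG was shared by 12 miR-34 names, among them those of miR-34a, miR-34b and miR-34c, and 3 further names began 1 base earlier with AGGCAGT. Of the 18 names of the miR-210-3p arm, 10 had the seed TGTGCGT, 5 had TTGTGCG and 3 had CTGTGCG, and these 8 names also began 1 base earlier. All 4 names of the miR-210-5p arm had GCCACTG. Outside both families, 1 entry of the table carried GGCAGTG (smo-miR1091, with 1 count in all libraries together), and 0 entries carried TGTGCGT or GCCACTG.

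Names and letters disagreed in places. aca-miR-34b-5p had 0 differences from efu-miR-34a over 21 positions, so it is a miR-34a sequence under a miR-34b name and is treated here as miR-34a. gga-miR-34b-5p had 0 differences from tgu-miR-34c-5p over 22 positions once shifted by 1 base. Positions are counted from 1 at the 5′ end of the sequence named first, whose base is written first. mmu-miR-34c-5p differed from dre-miR-34b, once shifted by 1 base, only at A10T over 22 positions. dre-miR-34b differed from oni-miR-34c only at T11C. Names of 34b and 34c from different species were therefore separated by as little as 0 or 1 base, and their counts may share reads. Within zebrafish, dre-miR-34c-5p and dre-miR-34b differed at 4 of 22 positions once shifted by 1 base. Between dre-miR-34c-5p and efu-miR-34a, by contrast, 12 of 23 positions differed.

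Depth was 5272418, 7660938 and 6516736 counts in large fish and 6684107, 11524535 and 7440944 counts in small fish, S2 being the deepest. A count of 0 allowed up to 0.392 to 0.569 counts per 1000000 (CPM) in a large fish library and 0.260 to 0.449 CPM in a small fish library, where 3 counts were taken as the limit. Of the erythrocyte markers, miR-451 lay at 2520 to 2806 CPM in large and 1143 to 2710 CPM in small fish. miR-144 lay at 373 to 646 CPM in large and 268 to 634 CPM in small fish. The third of that list, miR-486, was at 0.153 CPM in L3 and at 0 in L1, L2, S1, S2 and S3. The summed leukocyte markers (miR-142, miR-150, miR-223) lay at 9374 to 11700 CPM in large and 3283 to 4506 CPM in small fish. The summed skeletal muscle markers (miR-1, miR-133, miR-206) lay at 2374 to 6609 CPM in large and 10585 to 17496 CPM in small fish. In such libraries fewer vesicles from a cell type and less of a miRNA per vesicle cannot be told apart, and the part of these marker differences in the values below was not tested.

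The forms differed far more in level than the groups did. The zebrafish miR-210-5p ranked 170 of 1342 distinct value sets by its mean over the 6 libraries, miR-34a-5p ranked 512 and miR-210-3p ranked 603. dre-miR-34c-5p ranked 950, dre-miR-34c-3p 992, gmo-miR-34-3p 1091 and dre-miR-34b 1211. miRNAs are of nearly equal length, so CPM can be compared between them, although capture in library making differs between sequences.

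miR-210-5p was the most abundant form, and in CPM its group means differed by less than the SD of the small fish pools. dre-miR-210-5p, whose values ami-miR-210-5p and ola-miR-210-5p shared, stood at 557, 563 and 532 CPM in large fish, against 540, 453 and 564 CPM in small fish. The groups overlapped, and S2 was the lowest library while the other 5 lay between 532 and 564 CPM. Means were 551 ± 16.1 CPM in large and 519 ± 58.6 CPM in small fish (SD, n = 3 each). On the log2(CPM + 1) scale used for all fold changes here, the difference was 0.09 (SE 0.19, 95% interval -0.35 to 0.53, limma adjusted p = 0.764). This interval corresponds to 0.786-fold to 1.44-fold in large over small fish. Relative to the median of all entries tested the difference was 0.35, and its size depended on the scaling. It was 0.34 with TMM scaling, 0.30 with quantile normalization, 0.34 with both edgeR tests and 0.38 with DESeq2 (DESeq2 adjusted p = 0.117).

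The salmon name ssa-miR-210-5p differs from the zebrafish one at C16T, where the base written first is that of the zebrafish. It held 93.6 to 96.1% as many counts as dre-miR-210-5p in each library, and its log2 difference of 0.07 (SE 0.19) was of the same size. Which of these letters the carp hairpin has was not analysed here.

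**Figure D1:**
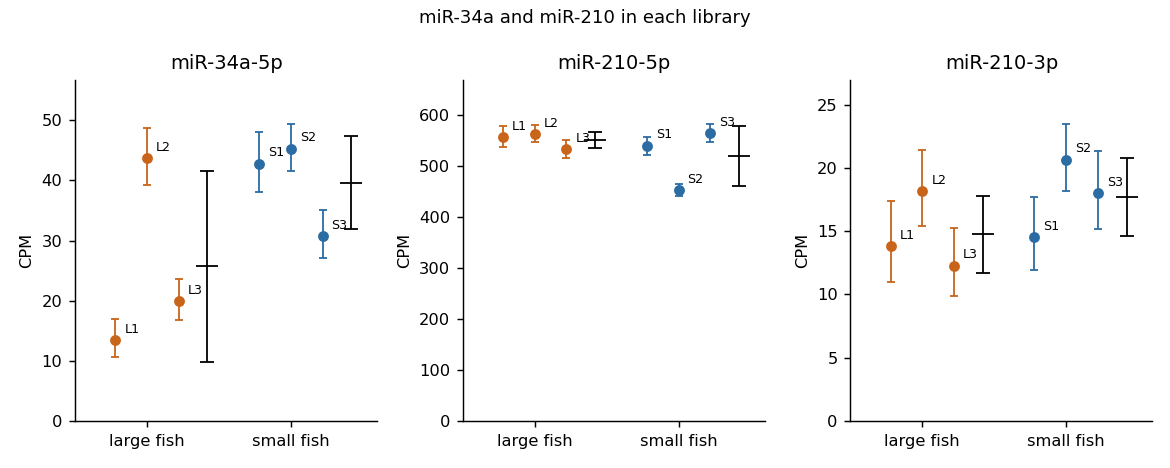
CPM of miR-34a-5p, miR-210-5p and miR-210-3p in each library (points, with 95% Wilson intervals that cover counting error only) and the mean with SD of each group (black, n = 3 pools). L1 and L3 lie below every small fish library for miR-34a-5p while L2 at 43.7 CPM lies among them, and S2 at 453 CPM is the lowest library for miR-210-5p.

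The steadiness of miR-210-5p was described by the coefficient of variation, the SD as a percent of the mean, over all 6 libraries. It was 7.88% for dre-miR-210-5p, the 12th lowest of 670 distinct value sets with a mean of at least 10 CPM, whose median was 31.2%. Within groups it was 2.93% over the large fish pools and 11.3% over the small fish pools. For dre-miR-210-3p the value was 19.6% (rank 175 from the lowest), and for miR-34a-5p it was 41.5% (rank 435), above the median. Rarer forms carry more counting error, which adds to this spread. The spread was computed on CPM only. It was not computed with TMM or quantile scaling, with which the group difference of miR-210-5p was larger.

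**Figure D2:**
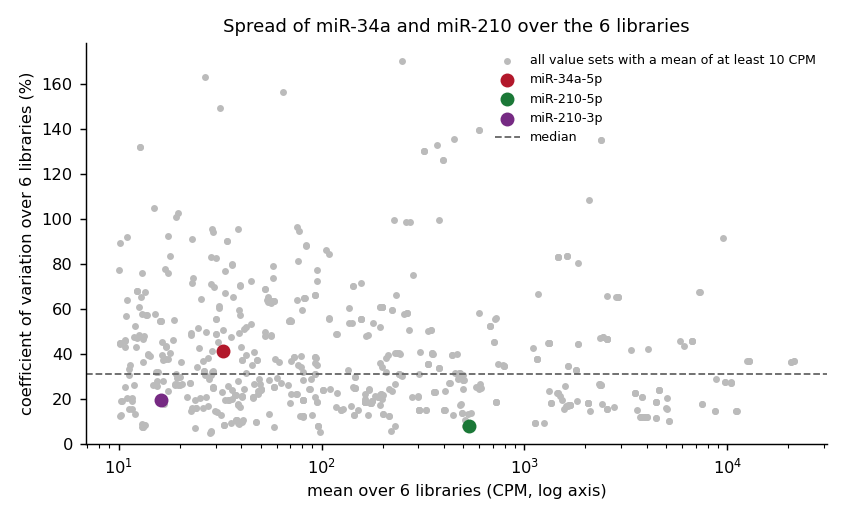
Coefficient of variation of CPM over the 6 libraries (percent) against the mean level (CPM, log axis). Grey points are the 670 distinct value sets with a mean of at least 10 CPM, and the dashed line is their median of 31.2%. miR-210-5p lies near the lower edge at 7.88%, miR-210-3p at 19.6% lies below the median and miR-34a-5p at 41.5% lies above it.

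miR-210-3p, the arm that carries the name in mammals, was low. dre-miR-210-3p stood at 13.8, 18.1 and 12.3 CPM in large fish, against 14.5, 20.7 and 18.0 CPM in small fish, from 73 to 238 counts per library. The groups overlapped, with L2 above S1, and S2 held the highest value. Means were 14.8 ± 3.04 CPM in large and 17.7 ± 3.08 CPM in small fish (SD, n = 3 each), and the log2 difference was -0.25 (SE 0.26, 95% interval -0.85 to 0.35, limma adjusted p = 0.551). Over all 1807 entries tested the median log2 difference was -0.26, so miR-210-3p lay 0.01 above the middle of the table. Its sign turned with the scaling, at -0.02 with TMM and 0.11 with quantile normalization.

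The 18 names of the 3p arm held 7 value sets of unequal size. Base differences here use the positions of dre-miR-210-3p, whose base is written first. The set of hsa-miR-210-3p, different at A21G, had at least 99.6% of the counts of dre-miR-210-3p in each library. The set of dme-miR-210-3p, different at C1T and A22T and shared with 3 other insect names, had 63.4 to 78.1%, pma-miR-210 of the sea lamprey had 41.6 to 57.5%, and tcf-miR-210-3p had 39.9 to 56.2%. dqu-miR-210-3p, which adds G18A, had 8 counts in all libraries together, and cqu-miR-210-3p, which adds G15A, had 4. The same reads may stand under several names, so the lower sets need not be measurements of further miRNAs.

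Log2 differences of these related sets ran from -0.25 to 0.04. In CPM, the insect set stood at 10.8, 12.5 and 8.29 in large fish, against 10.5, 13.1 and 12.1 in small fish. pma-miR-210 stood at 7.97, 9.66 and 6.60 in large fish, against 6.73, 8.59 and 7.93 in small fish. Both overlapped between groups, and L3 was the lowest library in each.

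Because both arms of a hairpin are cut from the same precursor, their ratio was compared as well. dre-miR-210-5p exceeded dre-miR-210-3p by 40.2, 31.0 and 43.4 times in large fish, against 37.2, 21.9 and 31.3 times in small fish. The 5p arm was thus the higher one in all 6 libraries, and S2 had the smallest ratio. Among 24 zebrafish hairpins with both arms tested, 18 had the 5p arm above the 3p arm, and miR-210 ranked 5 from the top of the list, at a mean log2 arm difference of 4.97. Large fish minus small fish, the arm difference was 0.34 (SE 0.30, 95% interval -0.35 to 1.04, limma adjusted p = 0.534). With limma 0 of the 24 pairs passed an adjusted p of 0.05 (0% of the pairs), and 2 had an unadjusted p under 0.05. Without S2 the miR-210 arm difference was 0.14 (limma adjusted p = 0.822).

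**Figure D3:**
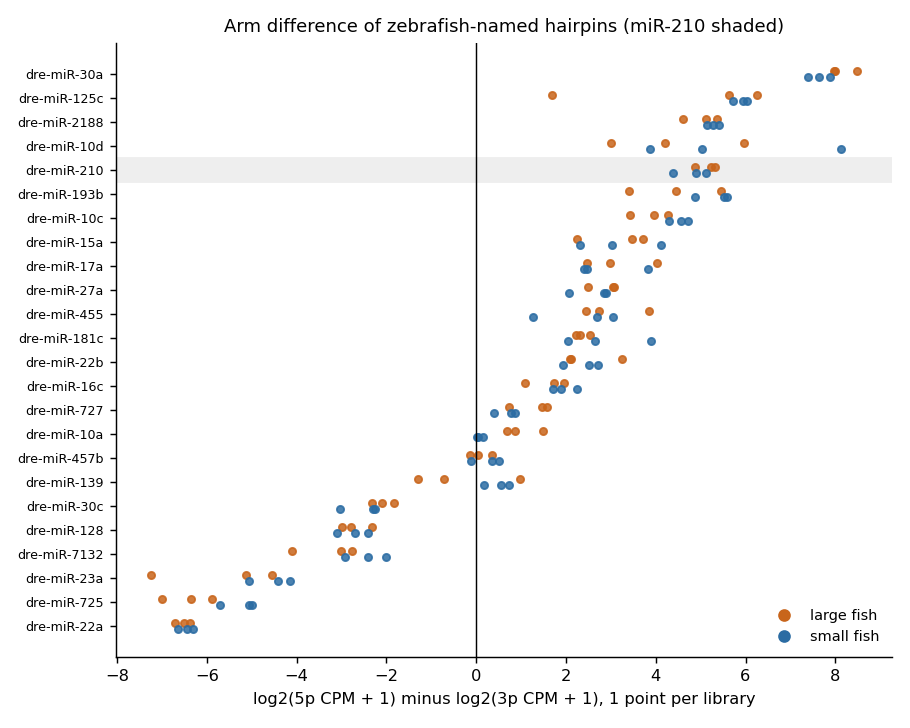
Difference between the 5p and the 3p arm, as log2(5p CPM + 1) minus log2(3p CPM + 1), in each library (1 point per library) for 24 zebrafish-named hairpins, ordered by their mean. miR-210 (shaded) is 5 from the top, with large fish at 5.23, 4.88 and 5.33 and small fish at 5.12, 4.39 and 4.89.

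miR-34a-5p was the only miR-34 form present in every library. It is given by efu-miR-34a, whose values gga-miR-34a-5p, hsa-miR-34a-5p, xla-miR-34a-5p and the misnamed aca-miR-34b-5p shared. Levels were 13.5, 43.7 and 19.9 CPM in large fish, against 42.8, 45.3 and 30.8 CPM in small fish, or 71, 335 and 130 counts against 286, 522 and 229. L1 and L3 lay below every small fish library, while L2 lay among them. The Wilson 95% intervals were 10.7 to 17.0 CPM for L1, 16.8 to 23.7 CPM for L3 and 39.3 to 48.7 CPM for L2, so the large fish pools differed from each other by more than counting error.

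Means of miR-34a-5p were 25.7 ± 15.9 CPM in large and 39.6 ± 7.76 CPM in small fish (SD, n = 3 each). The log2 difference of efu-miR-34a was -0.75 (SE 0.43, 95% interval -1.75 to 0.25, limma adjusted p = 0.268), or -0.49 relative to the median of all entries. The interval runs from 0.297-fold to 1.19-fold and so holds both a marked decrease and no change. Without L2 the difference was -1.20 (limma adjusted p = 0.0607), and without L1 it was -0.39 (limma adjusted p = 0.575). With all libraries it was -0.51 with TMM scaling, -0.32 with quantile normalization and with DESeq2, and -0.35 with both edgeR tests.

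Of the 39 names, 22 in 8 value sets reached 1 CPM in 3 libraries and were tested. With limma 0 of these 22 passed, against 17.0% of all 1807 entries tested. These were 308 entries, 51 of them (2.82%) higher in large fish and 257 (14.2%) lower. An entry passed when it changed by 1.5-fold or more with an adjusted p no higher than 0.05. The number of the 22 with an unadjusted p under 0.05 was 0 with limma and with both edgeR tests, and 3 with DESeq2, which were the names sharing the values of dre-miR-210-5p. Over all 1807 entries the share with an unadjusted p under 0.05 was 32.5% with limma, 30.6% with edgeR's quasi-likelihood test, 29.7% with edgeR's exact test and 32.2% with DESeq2. Groups that did not overlap were found in 0 of the 22, against 40.1% of all entries tested. The 22 names come from 3 forms, so they are not 22 separate observations.

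**Figure D4:**
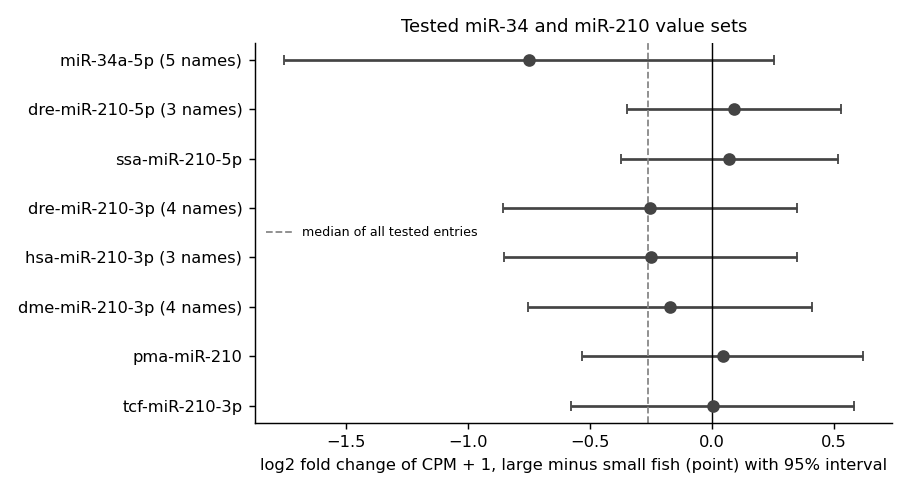
Log2 fold change of CPM + 1, large minus small fish, with its 95% interval from limma for the 8 tested value sets. All 8 intervals include 0, the set of miR-34a-5p has the widest at -1.75 to 0.25, and the dashed line is the median of all 1807 tested entries at -0.26.

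The other 17 names were below the filter. For 5 of them, all insect-type miR-210-3p names, the counts were those of the 2 rarest sets given above. The remaining 12 were the miR-34b, miR-34c and miR-34-3p names, in 8 value sets, and these were at 0 in all 3 large fish libraries and in S1.

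dre-miR-34c-5p had 0, 0 and 0 counts in large fish, against 0, 78 and 5 counts in small fish. In CPM the small fish stood at 0, 6.77 and 0.672, so S2 held 94.0% of all counts of this form. dre-miR-34c-3p, the opposite arm of the same hairpin, had 0, 0 and 0 counts in large fish, against 0, 69 and 0 in small fish. Both arms of miR-34c were thus seen in S2, in nearly equal number.

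The related names followed the same libraries. In S2 and S3, tgu-miR-34c-5p with gga-miR-34b-5p had 37 and 5 counts, mmu-miR-34c-5p with its 2 identical names 29 and 5, and oan-miR-34b-5p 27 and 5. dre-miR-34b with oni-miR-34c had 15 and 1, and ipu-miR-34b had 13 and 1. In S2 the counts fell to 47.4% of those of dre-miR-34c-5p for tgu-miR-34c-5p, 37.2% for mmu-miR-34c-5p and 16.7% for ipu-miR-34b, and the same reads may stand under several of these names. gmo-miR-34-3p of the cod carries no form letter in its name, and its seed differs from that of dre-miR-34c-3p. Whether it is the 3p arm of miR-34a, miR-34b or miR-34c was not analysed here. It had 0, 0 and 0 counts in large fish, against 0, 13 and 15 in small fish. Of the 12 names it was the one with more counts in S3 than in S2.

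**Figure D5:**
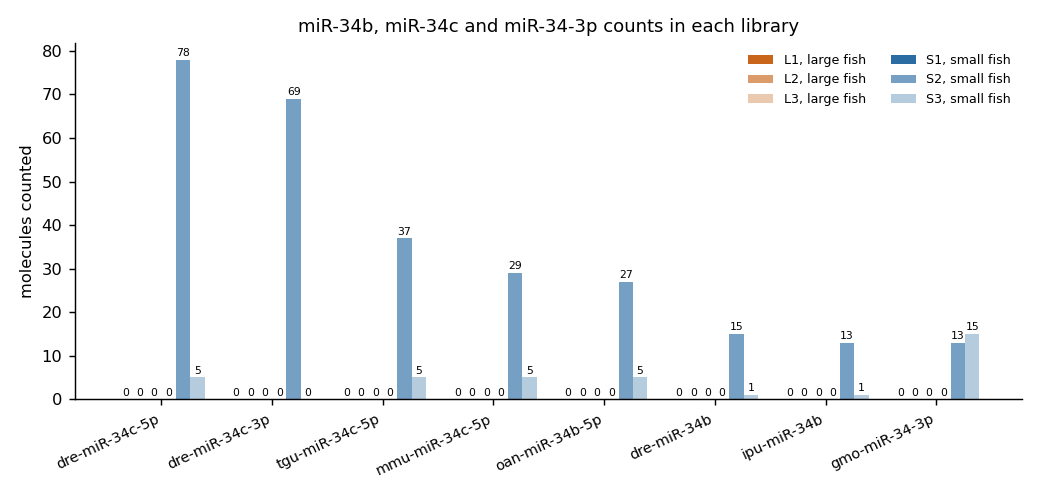
Counts of 8 names, 1 for each miR-34b, miR-34c and miR-34-3p value set, in each of the 6 libraries (bars, large fish in orange and small fish in blue, number above each bar). All bars of L1, L2, L3 and S1 are at 0, and S2 holds the highest bar of every set except gmo-miR-34-3p, where S3 has 15 and S2 has 13.

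The zeros were set against what the depth of each library would show. At the CPM of S2, dre-miR-34c-5p would have given 35.7, 51.9 and 44.1 counts in L1, L2 and L3, and 45.2 in S1. At the CPM of S3 it would have given 3.54, 5.15 and 4.38 counts in the large fish libraries, near the limit that a count of 0 allows.

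Over the 3 large fish libraries together, 0 of 19450092 counts allows up to 0.154 CPM. With the small fish libraries summed as well, the 83 counts of dre-miR-34c-5p gave a level 21.0 times that limit. Without S2, 5 counts were left and the level was 2.29 times the limit. For dre-miR-34c-3p the level was 17.4 times the limit, and without S2 there were 0 counts on either side. For gmo-miR-34-3p it was 7.08 times the limit, 6.88 times without S2 and 4.63 times without S3. These ratios allow for counting error in the large fish zeros but not in the small fish counts. They are therefore not lower bounds of the difference. The 5 counts of dre-miR-34c-5p in S3 had a Wilson interval of 0.287 to 1.57 CPM in that library. Whether the ratio left without S2 exceeds counting error was not tested. Spread between pools was not covered either, and S1 was at 0 like the large fish.

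Between pools rather than counts, the difference of the miR-34b and miR-34c names did not pass. In an edgeR quasi-likelihood test without the filter 0 of the 39 names passed, against 0.547% of 2925 entries called lower in large fish, and 8 names had an unadjusted p under 0.05 (21.4% of all entries did). In edgeR's exact test without the filter 0 passed, against 6.60% called lower, and 4 had an unadjusted p under 0.05 (20.8% of all entries). In DESeq2 without the filter 0 passed, against 7.53% called lower, and 5 had an unadjusted p under 0.05 (20.8% of all entries). These counts cover all 39 names in either direction, so they do not tell miR-34 from miR-210 names. In that DESeq2 fit dre-miR-210-5p, for example, had a log2 difference of 0.36, higher in large fish (DESeq2 adjusted p = 0.0758). For dre-miR-34c-5p the adjusted p was 0.186 with edgeR's quasi-likelihood test and 0.138 with edgeR's exact test. DESeq2 gave no adjusted p for dre-miR-34c-5p, so it could not pass there and that result decides nothing for it. Without S2 edgeR's exact test gave 0.651 for it, against 2.62% of entries called lower.

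Entries seen in few libraries were common, and the place of the miR-34 names among them was counted. Of the 2925 entries, 175 were above 0 in S2 alone and 171 in S3 alone, against 25 to 83 in each of the other 4 libraries. dre-miR-34c-3p was the highest of the 175, at 69 counts, and ipu-miR-219a was next at 36. There were 44 entries above 0 in S2 and S3 alone, and 11 of them were miR-34 names. The 44 entries held 17 distinct value sets and the 11 names 7, and these names may share reads. dre-miR-34c-5p was the highest of these 44 with 83 counts, and the highest entry of another family had 19. Each of the 14 other pairs of libraries shared 0 to 19 such entries, none of them miR-34 or miR-210. In all, 554 entries were at 0 in the large fish and above 0 in a small fish library, and 168 were at 0 in the small fish and above 0 in a large fish library. dre-miR-34c-5p ranked 4 and dre-miR-34c-3p ranked 5 of the 554 by counts. The small fish libraries held 25649586 counts together, against 19450092 in large fish, and S2 was the deepest. Small fish pools also held 5 fish each, against 2. These numbers and ranks were not adjusted for depth or pool size.

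Markers of other tissues were set beside S2. For multiciliated cells, miR-34b and miR-34c were 2 of the 3 markers listed, and miR-449 had no entry in the table. The summed epithelium and skin markers (miR-200, miR-141, miR-429, miR-203, miR-205) stood at 491, 624 and 404 CPM in large fish. In small fish their sum was 5029, 749 and 2599 CPM, with S2 the lowest of the small fish. Of the neuron and glia list, miR-9 stood at 1.71, 3.65 and 1.99 CPM in large fish, against 4.19, 34.2 and 4.70 CPM in small fish. miR-153 was also highest in S2, at 11.3 CPM, with 8.59 CPM in L3. miR-124, miR-128, miR-132, miR-137, miR-138 and miR-338 of that list were not highest in S2. miR-124 stood at 0.521 CPM in S2 and 13.2 CPM in S1. In S2, miR-128 stood at 406 CPM and miR-338 at 886 CPM, so these weigh most in the sum of the list. The best miR-219 entry stood at 3.12 CPM in S2 and at 0 in the other 5 libraries, while the sum of the 9 families of that list was 830 to 1224 CPM in large fish and 1368 to 1712 CPM in small fish, with S2 the lowest of the small fish. Of the ovary and germ line list, miR-202 stood at 0.190, 0.131 and 0 CPM in large fish, against 0.150, 1.74 and 0.672 CPM in small fish. The other family of that list, miR-430 of the early embryo, stood at 0, 1.70 and 1.84 CPM in large fish, against 1.65, 0.260 and 1.61 CPM in small fish. The sum of that list was 0.190 to 1.84 CPM in large fish and 1.80 to 2.28 CPM in small fish, and S2 was not the highest. miR-194, listed with p53, was at 30.9 CPM in S2 and at 3.26 to 7.12 CPM in the other 5. miR-192, of the same list, was at 90.3 CPM in S2 and at 13.5 to 46.5 CPM in the other 5. It is not among the most abundant families of that list, so the naming rule given below did not cover it. miR-143 and miR-145 of that list were also highest in S2, while miR-107, miR-15 and miR-16 were not. The liver marker miR-122 stood at 237 CPM in S2, 257 CPM in L1 and 254 CPM in S3. The part of such differences in the miR-34c counts of S2 was not tested.

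The families most alike to each form across the 6 libraries are given as a description. Pearson's r was computed on log2(CPM + 1), each family being represented by its entry with the highest mean. For miR-34a-5p they were miR-216 (r = 0.96), miR-18 (r = 0.92) and miR-551 (r = 0.90), out of 148 families. miR-551, for example, stood at 43.8, 130 and 69.2 CPM in large fish, against 92.3, 115 and 121 CPM in small fish, with L1 and L3 again the lowest. For miR-210-5p they were miR-456 (r = 0.96), miR-92 (r = 0.89) and miR-2021 (r = 0.89), each lowest in S2. For miR-210-3p they were miR-19 (r = 0.94), miR-135 (r = 0.87) and miR-9 (r = 0.79).

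Among 205 families seen in at least 2 libraries, dre-miR-34c-5p was most like miR-194 (r = 0.97), miR-79 (r = 0.97) and miR-202 (r = 0.97), each of which was highest in S2. dre-miR-34b was most like miR-79 (r = 0.98), miR-194 (r = 0.97) and miR-9 (r = 0.96), each likewise highest in S2. The miR-79 entry, asu-miR-79-5p, stood at 1.39 CPM in S2 and at 0 to 0.150 CPM in the other libraries. Whether these families share reads with each other was not tested, so they need not be separate matches. gmo-miR-34-3p was most like miR-217 (r = 0.94), miR-2187 (r = 0.92) and miR-6634 (r = 0.89). These values rest on 6 libraries, share the depth of those libraries and, for the rare forms, turn on 1 or 2 of them.

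Other families tied to p53 in mammalian cells were counted from a list of 10 (miR-34, miR-192, miR-194, miR-215, miR-107, miR-143, miR-145, miR-15, miR-16 and miR-605). With limma 3 of the 9 with a tested entry passed, against 21.5% of the 149 families tested in the same way. Each family stands for 1 entry, the one with the highest mean. For miR-15, a family that represses cell cycle genes, this was dre-miR-15c. dre-miR-15c was higher in large fish at 8169 ± 2252 CPM, against 4042 ± 187 CPM in small fish (SD, n = 3 each, log2 difference 0.97, SE 0.25, limma adjusted p = 0.0386). Other miR-15 entries were not compared between groups here. Their coefficients of variation over all libraries included 9.35% for dre-miR-15a-5p (mean 35.9 CPM) and 35.1% for ssa-miR-15a-5p (mean 76.2 CPM). miR-143, best known from smooth muscle, was lower in large fish at 1416 ± 347 CPM, against 3452 ± 375 CPM in small fish (log2 difference -1.31, SE 0.23, limma adjusted p = 0.0202). Its cluster partner miR-145, named after its values were seen, was lower as well (log2 difference -1.32, SE 0.27, limma adjusted p = 0.0218). Without L2, 0 of 1779 entries passed with limma, so dre-miR-15c, miR-143 and miR-145 did not pass either. miR-16, with the seed of miR-15, stood at 5045 ± 968 CPM in large and 5077 ± 805 CPM in small fish. The median log2 difference of the 9 was -0.31, against -0.21 over the 149 families, and miR-192 and miR-215 held identical values.

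Families tied to hypoxia in mammalian cells were counted from a list of 11 (miR-210, miR-21, miR-23, miR-24, miR-26, miR-27, miR-103, miR-107, miR-155, miR-181 and miR-199). With limma 1 of the 11 passed, against the same 21.5%, and their median log2 difference was 0.09, against -0.21 over the 149 families. The family that passed was miR-199, found in mesenchyme, which was lower in large fish at 4187 ± 2097 CPM, against 9142 ± 578 CPM in small fish (log2 difference -1.24, SE 0.34, limma adjusted p = 0.0479). Without L2 miR-199 did not pass, as 0 of 1779 entries passed with limma. miR-21, the most abundant of the list, stood at 26186 ± 8620 CPM in large and 16336 ± 2773 CPM in small fish (log2 difference 0.65, SE 0.27, limma adjusted p = 0.151). miR-26 stood at 2469 ± 477 CPM in large and 3067 ± 124 CPM in small fish (log2 difference -0.33, SE 0.20, limma adjusted p = 0.308). miR-210 entered this list through its 5p arm.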

How the data were processed

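Small RNA of plasma exosomes was sequenced in 3 large fish and 3 small fish pools, from libraries with unique molecular identifiers. The authors removed other RNA classes with Bowtie, matched the remaining reads to known miRNAs and counted reads of the same identifier as 1. The values that the authors deposited are CPM of all miRNA counts of a library. Whole counts could be recovered from the steps between low values for all values (100.0%, tolerance 0.02 of a count), which gave 5272418 to 11524535 counts per library.

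limma 3.58.1 with a trend (R 4.3.3) was run on log2(CPM + 1) over entries that reached 1 CPM in 3 or more libraries, two-sided, with Benjamini-Hochberg adjustment over 1807 entries. edgeR 4.0.16 and DESeq2 1.42.0 were run on the recovered counts as alternatives. The procedure was tested on simulated data. Members, lists, the tests and the naming rule were chosen with earlier results of these data known. The rule named each form's zebrafish entry, or otherwise the entry with the highest mean, names that disagree with their letters, the 3 most alike families, and the most abundant families of each list. Other alternatives were pseudocounts of 0.1 and 10, a filter of 10 CPM, no filter, TMM and quantile scaling, a replicate block, identical entries counted once and each library left out. Tests without the filter, also without S2, and a scaling to distinct entries were added after the data were seen. For 14 names the arm was assigned from the sequence. Hairpin positions in the carp genome were not analysed here.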

Additional observations from a re-analysis of the deposited data

How the results depend on the processing

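With every alternative run, 0 member entries passed, and miR-34a-5p kept a negative difference (limma, edgeR and DESeq2 adjusted p from 0.0607 to 0.996), although its size of -0.75 became -0.51 with TMM, -0.32 with quantile normalization and DESeq2, -0.35 with both edgeR tests and -0.19 with edgeR's exact test without the filter and without S2. The sign of the miR-210 arms did not hold. The miR-210-3p difference of -0.25 turned to 0.11 with quantile normalization, 0.027 with DESeq2, 0.0046 with DESeq2 without the filter and 0.19 with edgeR's exact test without the filter and without S2. The miR-210-5p difference of 0.09 turned to -0.0037 with limma without S2, with or without the filter. On the filtered entries it was 0.30 to 0.38 with TMM, quantile normalization, edgeR and DESeq2, and it was 0.02 when scaled to distinct entries. Without a library in turn it ran from -0.0037 to 0.15, that of miR-210-3p from -0.40 to -0.14 and that of miR-34a-5p from -1.20 to -0.39. Scaling moved the median of all entries from -0.26 to -0.05 with TMM, to 0.09 with quantile normalization and to -0.32 when scaled to distinct entries. Of all 1807 entries 308 passed (51 up and 257 down in large fish), which became 95 higher and 165 lower with TMM, and 138 higher and 95 lower with quantile normalization. The total was 46 with edgeR's quasi-likelihood test, 40 with that test without the filter, 173 with identical entries counted once, 50 without the filter and S2, and 132 with edgeR's exact test without the filter and S2. It ran from 0 to 362 with each library left out. These counts were 8 without L1, 0 without L2 (limma, with 542 entries at an unadjusted p under 0.05), 362 without L3, 153 without S1, 177 without S2 and 22 without S3. Same-numbered libraries did not deviate together (r = -0.05, -0.06 and 0.02), against r from -0.11 to 0.15 for differently numbered ones. No pairing by number was seen, but 3 libraries per group cannot show that there was none. With the replicate block 207 entries and 0 members passed, and the adjusted p of miR-34a-5p was 0.210 (limma). At the level of S3, dre-miR-34c-5p would give 3.54 to 5.15 counts in a large fish library, only just above the limit of 3 counts. At the level of S2 it would give 35.7 to 51.9. The level of S3 itself rests on 5 counts, and 3 pools per group limit the precision of all differences.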
